A study of Drosophila melanogaster with 6 samples.

Results

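Kinase and phosphatase genes of the microtubule-binding protein Tau were followed through single-cell RNA-seq libraries of the Drosophila melanogaster brain. They are sgg, par-1, Cdk5, its activator Cdk5alpha, rl, mts, tws and wdb, 8 of the 22064 features in the count matrices, and they were taken by symbol. The 3 libraries of tau P251L knock-in (KI) flies carry the genotype label "elav-tau P251L KI", and the 3 control libraries carry "elav-GAL4(x)/+", which is the neuronal elav driver without the knock-in. Brains of 20 male and 20 female flies went into each library, and they were digested for 30 minutes in 0.05% trypsin and passed through a 10 µm strainer. Fly age, the copy number and construction of the knock-in, and library batches are not given in the sources used here. The library, a pool of brains, is the replicate (n = 3 each). Nothing states that the pools came from separate crosses, so p-values measure the spread between these libraries.

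Tau binds and stabilises microtubules, and phosphorylation of its repeat and flanking regions loosens that binding. In the fly, Shaggy (sgg, the glycogen synthase kinase 3 homologue), Par-1 (the MARK homologue), Cdk5 with its activator and the ERK kinase Rolled (rl) are studied as kinases of Tau. Protein phosphatase 2A (PP2A) removes such phosphates. Its catalytic subunit is encoded by mts, and its regulatory subunits, which direct it to substrates, include the B subunit Twins (tws) and the B′ subunit Widerborst (wdb). Transcript counts report neither kinase activity nor the phosphorylation of Tau.

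In the Ensembl annotation of the BDGP6 assembly, which holds all 8 genes by identifier, sgg (FBgn0003371) lies on chromosome X from 2633952 to 2679553, on the plus strand. Arm 2R holds 3 of the kinase genes, par-1 (FBgn0260934) from 19456170 to 19485686 on the plus strand, Cdk5 (FBgn0013762) from 15569528 to 15571417 on the minus strand and rl (FBgn0003256) from 1071462 to 1125927 on the plus strand. Arm 2L holds Cdk5alpha (FBgn0027491) from 10308131 to 10310956 on the minus strand and mts (FBgn0004177) from 7827650 to 7833576 on the plus strand. Both regulatory subunit genes lie on the minus strand of arm 3R, tws (FBgn0004889) from 10126129 to 10139772 and wdb (FBgn0027492) from 27561675 to 27582241. The gap between wdb and tau (FBgn0266579, 27639886 to 27656996 on the minus strand) is 57644 bases. The par-1 interval overlaps mei-W68 on the same strand and Tbcb on the other, Cdk5 overlaps CG30466 on the other strand, and sgg overlaps lncRNA:CR45197 on its own strand. The sources used here do not say if the counting used the strand, so counts of these overlapping genes are uncertain.

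Levels are counts of unique molecular identifiers (UMIs), scaled as CPM (the UMIs of a gene per 1000000 UMIs of its sum, with TMM factors) and summed per library over the barcodes with at least 1000 UMIs. There were 101719 such barcodes, 7932 to 30602 per KI library and 5467 to 24278 per control library. The matrices held 37984526 to 114599045 UMIs per KI library and 22026339 to 103683860 per control library, and pairs of libraries shared 0.0703% to 1.02% of the barcodes of the smaller one. A cell set, called a gate, holds barcodes with at least 1 UMI of a defining gene and none of the other defining genes. The gates were VAChT (acetylcholine transporter; 37214 barcodes), VGlut (glutamate transporter; 15087), Gad1 (GABA synthesis; 9550), prt (Kenyon cells of the mushroom body, where VAChT UMIs were allowed; 4315) and repo (glia; 449, or 32 to 137 per library). One library stood apart in the gene that was edited: tau was at 70.4 CPM in KI replicate 3, and at 246 to 331 CPM in the other 5 libraries. Genotype effects without that library are therefore also given for tau, mts, Cdk5 and rl, and for tws in the VAChT and Gad1 gates, with the counts of features called. For tws over all barcodes and for the other genes, the range with a library left out is given.

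Summed markers of the gated cell types were highest in their own gates. Each gate gene is among the markers of its own type, so that part of the pattern was set by the gating. VGlut was the only glutamatergic marker. Of markers not used for gating, ChAT was at 438 to 607 CPM in the VAChT gate and 19.3 to 283 CPM in the other neuron gates. VGAT was at 249 to 326 CPM in the Gad1 gate and 44.7 to 74.6 CPM in the other neuron gates. The summed level of 10 glia markers was 7743 to 9474 CPM in the repo gate and 137 to 1028 CPM in the neuron gates. The sum of 6 neuron markers was 871 to 4247 CPM in the repo gate, highest in KI replicate 2, and 9101 to 12101 CPM in the neuron gates. The sum of 8 Kenyon cell markers was 20295 to 24739 CPM in the prt gate, against 4172 to 6429 CPM in the other 3 neuron gates. Dop2R, 1 of the 8, overlapped, at 1658 to 2871 CPM in the prt gate and 1481 to 2147 CPM in the VAChT gate. The others not used for gating were higher in the prt gate without overlap, among them mub at 7475 to 11166 CPM and 1740 to 2534 CPM. Markers of the fat body, a tissue outside the brain, were present in every gate. Their sums need not be fat body RNA alone. FASN1, 1 of the 6, was at 72.2 to 186 CPM over all gates and libraries. Another, apolpp, was at 807 to 1893 CPM in the repo gate and 7.3 to 226 CPM in the neuron gates. In the Gad1 gate of control replicate 1 the 6 fat body markers summed to 33238 CPM, with the yolk protein genes Yp1 at 11802, Yp2 at 8631 and Yp3 at 12442 CPM. The sum there was 103 to 751 CPM in the KI libraries and 691 CPM in the lowest control. The repo gate also held neuronal RNA: nSyb, a synaptic vesicle gene, was there at 8.0% to 24.7% of its mean neuron-gate level. Of the other neuron markers, elav was at 22.1% to 51.3%, brp at 5.4% to 34.3% and para at 3.8% to 30.7%. Syt1 was at 7.1% to 26.8% and fne at 7.1% to 26.2%.

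The clearest differences in the 8 genes were between cell types. Relative to the mean of the 4 neuron gates, the repo gate had more par-1 and less Cdk5alpha, sgg, wdb, tws and rl. The test was edgeR's quasi-likelihood test on 30 sums (5 gates in 6 libraries, with the library as a block), adjusted over 8262 features by the Benjamini-Hochberg method, with adjusted p under 0.05 as the threshold. It called 6 of the 8 genes, 1 higher and 5 lower in the repo gate, where 22.4% of all features were called higher and 30.7% lower. Being called is therefore common in this contrast. The median log2 difference was -0.48 over the 8 genes and -0.22 over all features. The gates also differed in the median mitochondrial share of UMIs per barcode. It was 9.05% to 18.5% in the repo gate, highest in KI replicate 3, and 2.02% to 7.33% in the neuron gates. Its part in these differences was not tested.

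**Figure D1:**
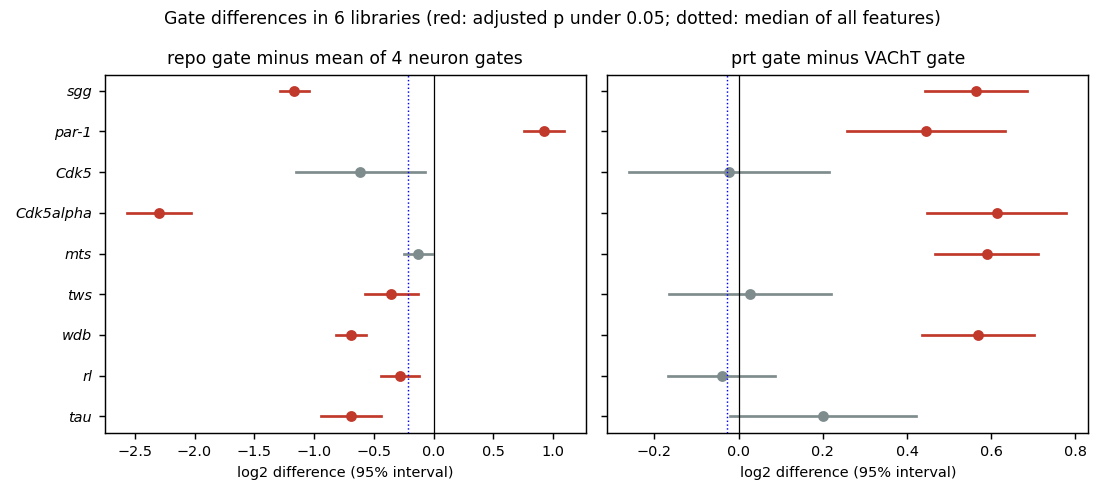
Log2 difference (x axis) of each gene with its 95% interval, for the repo gate minus the mean of the 4 neuron gates (left) and for the prt gate minus the VAChT gate (right); red marks an adjusted p under 0.05 and the dotted line the median of all features. In the repo gate par-1 lies at 0.92 and Cdk5alpha at -2.30, and in the prt gate 5 genes lie between 0.44 and 0.61.

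The kinase gene par-1 was the single gene of the set that was higher in the repo gate. Its level there was 589, 457 and 689 CPM in the KI libraries and 350, 496 and 565 CPM in the controls. In the VAChT gate it was 261, 326 and 273 CPM in the KI libraries and 242, 245 and 256 CPM in the controls. Within every one of the 6 libraries the repo gate was above each of the neuron gates. The level in the repo gate was 137% to 238% of the mean neuron-gate level of the same library. That is a log2 difference of 0.92 ± 0.08 (SE; adjusted p = 1.98e-10, edgeR), a fold of 1.89. The overlapping genes mei-W68 and Tbcb were not separated from par-1.

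Cdk5alpha, the p35-type activator that Cdk5 needs for activity, had the steepest decline in the repo gate. It was at 40.4, 57.2 and 18.1 CPM in the repo gate of the KI libraries and at 24.1, 24.0 and 18.8 CPM in that of the controls. These values rest on 42 UMIs in all, so single libraries are imprecise, and the SE below can be smaller than the counting error. The VAChT gate held 158, 150 and 172 CPM in the KI libraries and 125, 155 and 153 CPM in the controls. No repo-gate value reached the lowest neuron-gate value, and the log2 difference was -2.30 ± 0.13 (SE; adjusted p = 4.04e-14, edgeR). The repo gate stood at 9.8% to 34.5% of the neuron-gate level, and the highest was KI replicate 2, as for the neuron markers. Beside it, nSyb stood at 8.0% to 24.7%, brp at 5.4% to 34.3% and elav at 22.1% to 51.3%. The part of carried-over neuronal RNA in this remainder was not tested. When the repo gate was restricted to barcodes with at least 3 UMIs of other glia markers, the difference was -3.46 (adjusted p = 2.24e-14), over 1.5 times as large, and with at least 2 UMIs of the gate gene it was -3.73.

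Cdk5 itself was sparse, with 24 UMIs in the repo gate over all libraries. Its level there was 25.3, 4.8 and 27.2 CPM in the KI libraries and 24.1, 13.7 and 25.1 CPM in the controls. In the VAChT gate it was between 28.0 and 33.5 CPM in all 6 libraries. The log2 difference of -0.61 ± 0.26 missed the threshold in edgeR (adjusted p = 0.0513). It passed in 9 of 17 alternatives, with adjusted p down to 0.00299.

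The kinase gene sgg was also lower in the repo gate. It was at 381, 453 and 308 CPM there in the KI libraries and at 253, 322 and 333 CPM in the controls. The VAChT gate held 681, 928 and 726 CPM in the KI libraries and 613, 687 and 731 CPM in the controls. Every library showed the lower level, at 38.5% to 51.2% of the neuron gates. On the log2 scale this was -1.17 ± 0.06 (SE; adjusted p = 3.68e-15, edgeR). Among barcodes with 1000 to 3000 UMIs it was -0.75 (adjusted p = 5.14e-07).

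Of the ERK kinase gene rl, the repo gate held 296, 233 and 290 CPM in the KI libraries and 241, 240 and 257 CPM in the controls. The VAChT gate held 316, 349 and 386 CPM in the KI libraries and 310, 303 and 368 CPM in the controls. On the log2 scale the gates differed by -0.28 ± 0.08 (adjusted p = 0.00358, edgeR), where the median of all features was -0.22. The value ranged from -0.69 with at least 2 UMIs of the gate gene (adjusted p = 2.765e-05) to -0.12 without the deepest 5% of barcodes (adjusted p = 0.362), and it was -0.47 with 3 UMIs of other glia markers (adjusted p = 5.95e-06). The call was lost in 5 of 17 alternatives, among them DESeq2 (-0.17, adjusted p = 0.0778) and the fit without control replicate 2 (-0.26, adjusted p = 0.0536).

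The PP2A genes differed from each other. The catalytic subunit gene mts was at 361, 434 and 354 CPM in the repo gate of the KI libraries and at 350, 393 and 439 CPM in that of the controls. The VAChT gate held 399, 501 and 370 CPM in the KI libraries and 325, 376 and 371 CPM in the controls. These ranges overlap widely. For mts the log2 difference was -0.13 with a 95% interval of -0.25 to -0.013 (adjusted p = 0.0572, edgeR), and it passed the threshold in 9 of 17 alternatives, at -0.38 to -0.15. With 487 UMIs of mts in the repo gate, that interval can be too narrow.

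The regulatory subunit gene wdb fell in the repo gate, where it was at 556, 605 and 462 CPM in the KI libraries and at 314, 544 and 408 CPM in the controls. The VAChT gate held 778, 896 and 716 CPM in the KI libraries and 547, 735 and 761 CPM in the controls. The repo gate was at 51.5% to 67.5% of the neuron gates of the same library. The log2 difference was -0.69 ± 0.06 (SE; adjusted p = 2.43e-10, edgeR), and -0.39 among barcodes with 1000 to 3000 UMIs (adjusted p = 0.00464). It was -1.20 with at least 2 UMIs of the gate gene and -0.43 without the deepest 5% of barcodes. The other regulatory subunit gene, tws, varied among libraries from 72.5 to 207 CPM in the repo gate, at 37.5% to 122% of the neuron gates. The lowest value (KI replicate 3) rests on 8 UMIs and the highest (control replicate 3) on 33, so single libraries are imprecise. The log2 difference of tws, -0.35 ± 0.11 (adjusted p = 0.00728, edgeR), was lost without KI replicate 3 (-0.22, adjusted p = 0.0694) and without control replicate 2 (-0.21, adjusted p = 0.204). It was also lost without the deepest 5% of barcodes (-0.19, adjusted p = 0.239) and among barcodes with 1000 to 3000 UMIs (-0.23, adjusted p = 0.301), and was -0.71 with at least 2 UMIs of the gate gene (adjusted p = 0.000165).

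For the substrate, tau was at 242, 233 and 9.1 CPM in the repo gate of the KI libraries and at 169, 181 and 100 CPM in that of the controls. The 9.1 CPM of KI replicate 3 rests on 1 UMI. The VAChT gate held 303, 345 and 65.4 CPM in the KI libraries and 225, 250 and 284 CPM in the controls. Its log2 difference was -0.69 ± 0.12 (SE; adjusted p = 2.25e-05, edgeR). It was -0.18 without the deepest 5% of barcodes (adjusted p = 0.189) and 0.10, in the other direction, among barcodes with 1000 to 3000 UMIs (adjusted p = 0.606). With at least 2 UMIs of the gate gene it was -1.23.

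**Figure D2:**
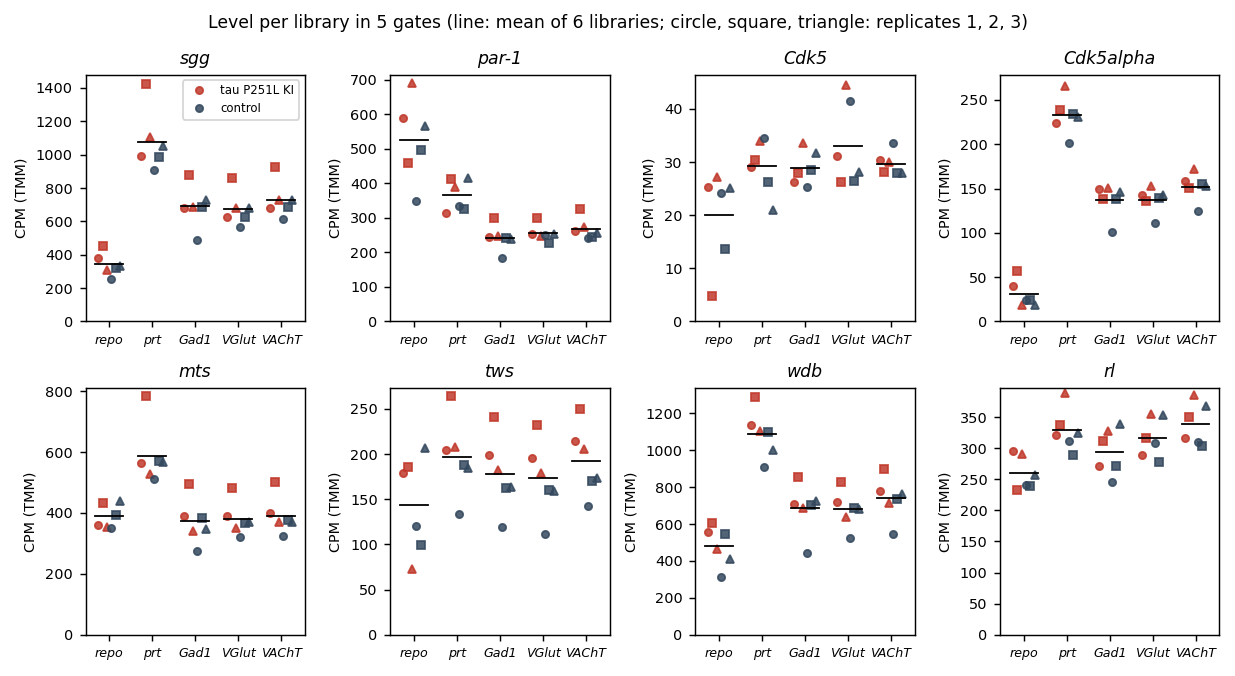
CPM (y axis) of each of the 8 genes in the 5 gates, 1 point per library (red, tau P251L KI; blue-grey, control; circle, square and triangle, replicates 1, 2 and 3), with a line at the mean of 6 libraries. The repo-gate points of par-1 lie above those of the neuron gates in the same library, those of sgg and Cdk5alpha lie below, and the prt-gate points of sgg, Cdk5alpha, mts and wdb lie highest.

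Among the neuron gates, the Kenyon cell gate stood apart. Against the VAChT gate, 5 of the 8 genes were higher in the prt gate and none lower, where 20.7% of all features were called higher and 21.6% lower. The median log2 difference was 0.50 over the 8 genes and -0.027 over all features. All 5 calls were kept in the 16 alternatives. Barcodes of the prt gate were deeper, with a median of 2638 to 4740 UMIs per library, against 1602 to 2409 in the VAChT gate.

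The catalytic PP2A gene mts was at 565, 786 and 529 CPM in the prt gate of the KI libraries and at 513, 572 and 566 CPM in that of the controls. The log2 difference to the VAChT gate was 0.59 ± 0.06 (SE; adjusted p = 9.23e-09, edgeR). The lowest of the prt-gate values, 513 CPM, lay above the highest VAChT-gate value, 501 CPM. Its regulatory partner wdb was at 1138, 1289 and 1105 CPM in the KI libraries and at 909, 1097 and 1000 CPM in the controls, with a log2 difference of 0.57 ± 0.06 (adjusted p = 6.49e-08, edgeR). The lowest prt-gate value of wdb, 909 CPM, lay above the highest VAChT-gate value of 896 CPM. The other regulatory subunit gene, tws, gave 0.026 with a 95% interval of -0.17 to 0.22 (adjusted p = 0.861, edgeR). It was at 205, 264 and 207 CPM in the prt gate of the KI libraries and at 133, 188 and 184 CPM in that of the controls.

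Of the kinase genes, sgg was at 992, 1422 and 1109 CPM in the prt gate of the KI libraries and at 907, 988 and 1051 CPM in that of the controls. The log2 difference was 0.56 ± 0.06 (SE; adjusted p = 1.51e-08, edgeR), and 0.35 among barcodes with 1000 to 3000 UMIs. The first of these log2 differences is more than 1.5 times the second, and the cause of that change was not tested. Without the deepest 5% of barcodes sgg gave 0.58. The activator gene Cdk5alpha was at 224, 239 and 266 CPM in the KI libraries and at 202, 234 and 231 CPM in the controls, and its log2 difference was 0.61 ± 0.08 (adjusted p = 6.57e-07, edgeR). The kinase gene Cdk5 gave -0.022 with a 95% interval of -0.26 to 0.22 (adjusted p = 0.910, edgeR). The kinase gene par-1 was at 314, 413 and 389 CPM in the KI libraries and at 334, 324 and 414 CPM in the controls, with a log2 difference of 0.44 ± 0.09 (adjusted p = 0.000277, edgeR). For rl the difference was -0.041, with a 95% interval of -0.17 to 0.085, and it missed the threshold. Among barcodes with 1000 to 3000 UMIs rl was called lower in the prt gate (-0.21, adjusted p = 0.0138, edgeR). The tau transcript itself gave 0.20 (95% interval -0.021 to 0.42; adjusted p = 0.141, edgeR).

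The VAChT, VGlut and Gad1 gates were close to each other. No gene of the set passed between the VGlut and VAChT gates in edgeR, where 7.46% of all features did. At an unadjusted p under 0.05 the count was 0 of 8, against 16.2% of all features. With DESeq2 the count was 3 (sgg, tws and rl, all lower in the VGlut gate). The log2 differences lay between -0.16 (tws) and 0.12 (Cdk5). Between the Gad1 and VAChT gates, rl passed, with 271, 312 and 328 CPM in the Gad1 gate of the KI libraries and 245, 270 and 340 CPM in that of the controls. The log2 difference was -0.20 ± 0.06 (adjusted p = 0.0255, edgeR), where 7.86% of all features were called lower. It lost the call in 13 of 16 alternatives, among them those without control replicate 1 (-0.16, adjusted p = 0.145), whose Gad1 gate held the most fat body RNA, and without barcodes over 1% fat body UMIs (-0.16, adjusted p = 0.0884). It kept it with DESeq2, with RLE scaling and without control replicate 3.

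By mean level over the 6 libraries, sgg, Cdk5alpha and wdb followed the order prt, VAChT, Gad1 or VGlut, repo. The VGlut and Gad1 gates were neighbours that did not separate: sgg was higher in the VGlut gate than in the Gad1 gate in 1 of 6 libraries, Cdk5alpha in 3 and wdb in 2. For par-1 the order was repo, prt, VAChT, VGlut and Gad1, and the VGlut gate was above the Gad1 gate in 4 of 6 libraries. For mts it was prt first, with the other 4 gates within 372 to 390 CPM. For tws and rl the prt and VAChT gates could not be ranked, since the VAChT gate was higher in 2 and 3 of 6 libraries.

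The genotype comparison asked whether the level of these genes differs between brains with the tau P251L knock-in and control brains. Over all barcodes, none of the 8 genes passed in edgeR, where 25 of 11200 features, or 0.223%, did. At an unadjusted p under 0.05 the count was 1 of 8, against 12% of all features, and DESeq2 also called 0 of 8. In a sum over barcodes, a different mix of cells and a different level per cell cannot be told apart. The largest of the 8 differences was in tws.

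**Figure D3:**
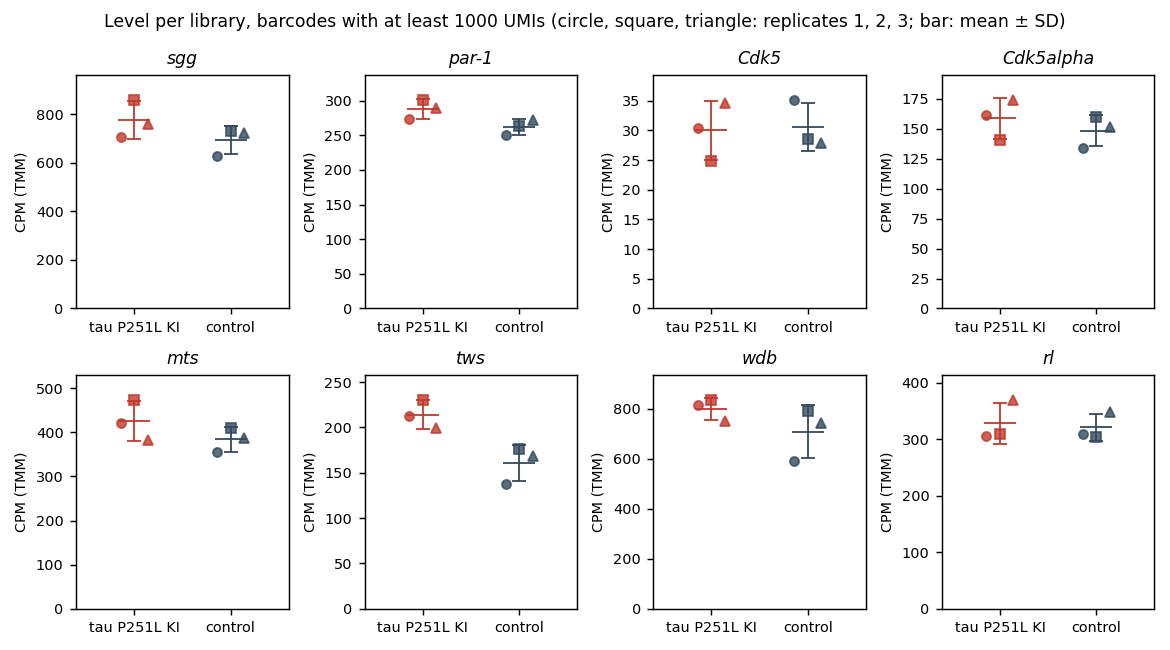
CPM (y axis) of each of the 8 genes over barcodes with at least 1000 UMIs, in 3 tau P251L KI libraries (left, red) and 3 control libraries (right, blue-grey), with mean and SD. The KI libraries of tws lie at 199 to 230 CPM and the controls at 138 to 176 CPM, while the groups of sgg, Cdk5, Cdk5alpha, mts, wdb and rl overlap.

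The PP2A B subunit gene tws was at 213, 230 and 199 CPM in the KI libraries and at 138, 176 and 169 CPM in the controls. The groups did not overlap, and the log2 fold change was 0.41 ± 0.13 (SE; 95% interval 0.11 to 0.71), a fold of 1.33. It did not pass the adjusted threshold (unadjusted p = 0.0135, adjusted p = 0.298, edgeR). Within a gate, CPM values of the genotype comparison come from a fit of that gate alone, whose TMM factors differ from those of the 30 sums, so the levels differ slightly from those above. In the VAChT gate tws was at 219, 238 and 211 CPM in the KI libraries and at 153, 179 and 178 CPM in the controls (0.39, adjusted p = 0.344, edgeR). In the VGlut gate the log2 fold change was 0.42 (adjusted p = 0.762), in the Gad1 gate 0.40 (adjusted p = 0.689) and in the prt gate 0.33 (adjusted p = 0.580), all in edgeR. In each of these gates all 3 KI libraries lay above all 3 controls, which held for 7.41% of all features in the VAChT gate, 6.16% in VGlut, 6.15% in Gad1 and 7.83% in prt. The gates share their libraries. In the repo gate the groups overlapped (0.093, 95% interval -0.83 to 1.02).

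The fat body markers moved with the genotype too, and with no overlap: the sum of 6 such genes was 131 to 753 CPM in the KI libraries and 814 to 7619 CPM in the controls, highest in control replicate 1, where tws was lowest. Without barcodes that held over 1% of UMIs from these markers, tws gave 0.40 (adjusted p = 0.382, edgeR). That step leaves the fat body RNA of the other barcodes in place. The median mitochondrial share of UMIs per barcode also separated the groups, at 5.86%, 6.55% and 6.46% in the KI libraries and 3.21%, 4.28% and 3.88% in the controls. It was higher in the KI libraries without overlap in each neuron gate. In the repo gate the groups overlapped, at 11.3%, 9.72% and 18.5% in the KI libraries and 10.4%, 9.68% and 9.05% in the controls. Without barcodes over 20% mitochondrial UMIs, tws gave 0.41 (adjusted p = 0.304, edgeR). The glutamatergic marker VGlut was at 487 to 802 CPM in the KI libraries and 412 to 459 CPM in the controls. Hemocyte markers summed to 2.66 to 8.89 CPM in the KI libraries and 14.1 to 27.0 CPM in the controls. The part of fat body RNA, of the mitochondrial share, of VGlut-expressing cells and of hemocytes in the result was not tested. With a library left out, tws gave 0.31 (without control replicate 1, adjusted p = 0.611, edgeR) to 0.50 (without control replicate 2). Without KI replicate 3 it was 0.44 in the VAChT gate and 0.46 in the Gad1 gate.

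The kinase gene par-1 was the other gene without overlap, at 273, 301 and 289 CPM in the KI libraries and 250, 264 and 272 CPM in the controls. Its log2 fold change was 0.14 ± 0.10 (adjusted p = 0.597, edgeR). Having 2 of 8 genes without overlap compares with 18.8% of all features. The kinase gene sgg was at 708, 861 and 758 CPM in the KI libraries and 628, 730 and 724 CPM in the controls, with a log2 fold change of 0.16 ± 0.12 (adjusted p = 0.618, edgeR).

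Among the phosphatase genes, mts was at 420, 474 and 383 CPM in the KI libraries and 354, 410 and 387 CPM in the controls (0.15 ± 0.12, adjusted p = 0.636, edgeR). The B′ subunit gene wdb was at 816, 836 and 751 CPM in the KI libraries and 589, 791 and 744 CPM in the controls (0.18 ± 0.14, adjusted p = 0.619, edgeR). Control replicate 1 was the lowest library for both. Without KI replicate 3, mts gave 0.24. With a library left out, wdb gave 0.057 to 0.28, sgg 0.077 to 0.24, par-1 0.099 to 0.19 and Cdk5alpha 0.025 to 0.18.

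The remaining genes, the kinase genes Cdk5 and rl and the activator gene Cdk5alpha, were nearest to 0. The 95% interval was -0.43 to 0.38 for Cdk5 (30.5, 24.9 and 34.7 CPM in the KI libraries; 35.2, 28.5 and 28.0 CPM in the controls). For Cdk5alpha it was -0.19 to 0.39 (162, 140 and 174 CPM in the KI libraries; 134, 160 and 151 CPM in the controls). For rl it was -0.26 to 0.32 (305, 309 and 370 CPM in the KI libraries; 309, 304 and 349 CPM in the controls). These intervals do not show that the groups are alike. In all, 7 of the 8 log2 fold changes were above 0, against 50.2% of all features, and the 8 genes share the same 6 libraries. The tau transcript gave -0.16 ± 0.50 (adjusted p = 0.905, edgeR), and 0.30 without KI replicate 3.

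**Figure D4:**
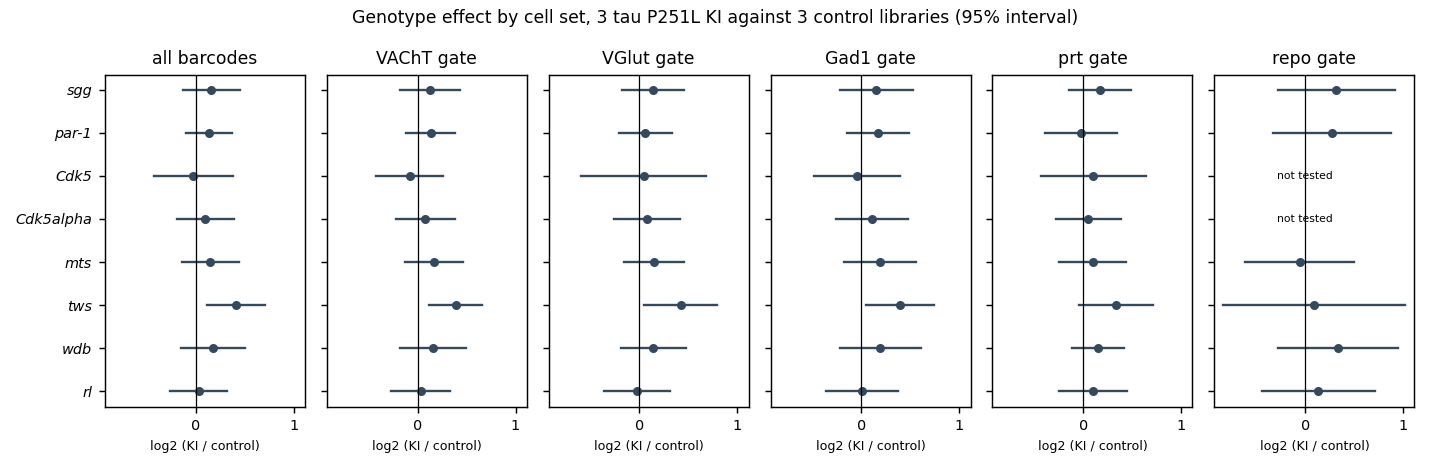
Log2 ratio of tau P251L KI to control (x axis) with its 95% interval for each of the 8 genes, over all barcodes and in the 5 gates (3 libraries against 3). The interval of tws lies above 0 over all barcodes and in the VAChT, VGlut and Gad1 gates, and Cdk5 and Cdk5alpha were too sparse to be tested in the repo gate.

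Within the gates, the count of genes called for the genotype was 0 of 8 in each neuron gate and 0 of 6 in the repo gate, where Cdk5 and Cdk5alpha did not pass the filter on low counts. The share of all features called was 0.267% in the VAChT gate, 0.195% in VGlut, 0.0521% in Gad1, 0.22% in prt and 0.0776% in repo. At an unadjusted p under 0.05 the count was 1 (tws) in each of the VAChT, VGlut and Gad1 gates and 0 in the prt and repo gates. Of all features, 9.84%, 6.25%, 7.01%, 8.94% and 13% were under it in the VAChT, VGlut, Gad1, prt and repo gates. DESeq2 called 0 in every gate. In the repo gate, again scaled within the gate, the smallest p was that of wdb, at 588, 668 and 502 CPM in the KI libraries and 370, 584 and 427 CPM in the controls (0.33 ± 0.28, adjusted p = 0.605, edgeR).

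The difference between the genotype effect in the repo gate and that in the neuron gates was tested itself. None of the 8 genes passed in edgeR or DESeq2, where 1.73% of all features passed in edgeR. At an unadjusted p under 0.05 the count was 0 of 8, against 13.4% of all features. The smallest p was that of mts, with -0.27 ± 0.13 (adjusted p = 0.379). This value depended on the scaling: the sum that TMM scaling took as its reference was a repo-gate sum of 293472 UMIs, and with the deepest sum as the reference mts gave -0.062 (adjusted p = 0.921). That change of reference moved the median feature by 0.19 in this contrast and by -0.014 in the repo gate against the neuron gates.

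The genes around these 8 were read in the same fits, from lists taken from general knowledge of the pathways. Over all barcodes, 0 genes of the 5 lists passed for the genotype in edgeR: 0 of 20 other tau kinases tested, 0 of 11 PP2A subunits and regulators, 0 of 11 other serine/threonine phosphatases, 0 of 13 genes of the ERK cascade and 0 of 9 Wnt and Par-1 partners. At an unadjusted p under 0.05 the counts were 1, 1, 1, 2 and 0. Of all features, 0.223% passed and 12% had an unadjusted p under 0.05.

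**Figure D5:**
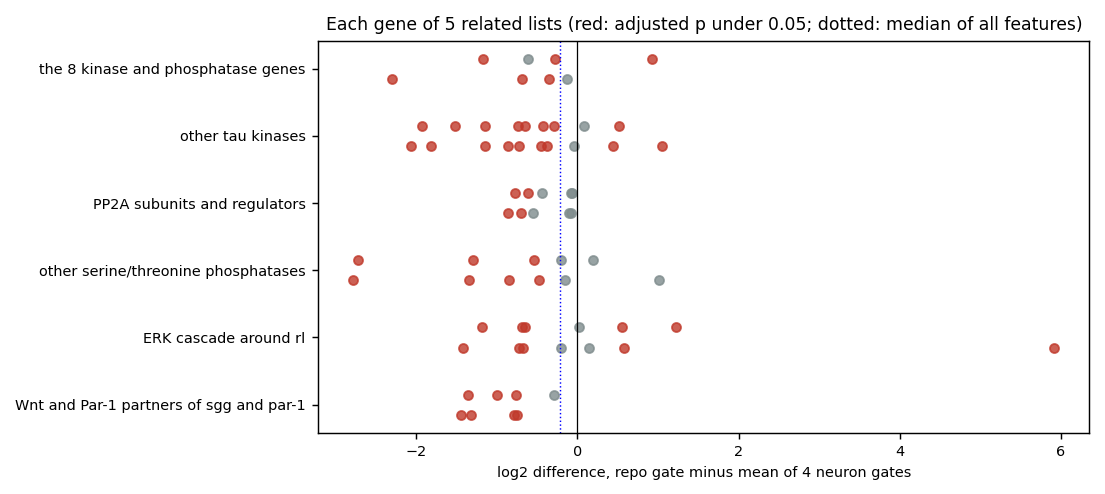
Log2 difference of the repo gate minus the mean of the 4 neuron gates (x axis) for each tested gene of 5 related lists and the 8 genes (rows); red marks an adjusted p under 0.05 and the dotted line the median of all features, -0.22. The Wnt and Par-1 partners lie between -1.44 and -0.29, and the gene at 5.92 in the ERK row is pnt.

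Of the other tau kinases, 3 of 19 were higher in the repo gate and 14 lower, where 22.4% of all features were higher and 30.7% lower. Their median was -0.65, against -0.22 over all features. Akt1, the insulin-pathway kinase, was at 130 ± 26.4 CPM in the repo gate and at 62.6 ± 13.8 CPM in the neuron gates (SD, n = 6 each; log2 difference 1.05, adjusted p = 2.51e-07, edgeR). The tyrosine kinase gene Abl followed at 573 ± 118 CPM and 399 ± 72.9 CPM (0.51, adjusted p = 7.24e-08, edgeR). The steepest decreases were those of Src64B, another tyrosine kinase gene, at 21.3 ± 19.9 CPM in the repo gate and 92.4 ± 16.6 CPM in the neuron gates (-2.07), and of CaMKII, the calcium/calmodulin-dependent kinase, at 302 ± 152 CPM and 1168 ± 207 CPM (-1.93). Against the VAChT gate, the prt gate had 6 of 19 of these kinase genes higher and 3 lower, beside 20.7% and 21.6% of all features. The largest increase, that of Pka-C1 (2.49), belongs to a gene that is also among the Kenyon cell markers used above.

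Of the PP2A subunits and regulators, none of 10 was higher in the repo gate and 4 were lower, beside 22.4% and 30.7% of all features, and the count of lower genes is near that background. PpV and Pp4-19C are among the 10, and neither was called there. Cka, the fly striatin, which is a regulatory subunit of PP2A, was at 115 ± 27.2 CPM in the repo gate and 211 ± 21.3 CPM in the neuron gates (-0.86, adjusted p = 4.80e-09, edgeR). The PP2A activator gene Ptpa was at 12.8 ± 2.15 CPM and 23.0 ± 3.35 CPM (-0.77, adjusted p = 0.0326, edgeR). The call for Ptpa was lost in 9 of 17 alternatives. In the prt gate 5 of 10 were higher than in the VAChT gate and 1 was lower (all features: 20.7% and 21.6%), beside the rise of mts and wdb. The higher ones include PpV (0.34, adjusted p = 0.0125, edgeR), which is not a PP2A gene.

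Of the other serine/threonine phosphatases, none of 11 was higher in the repo gate and 7 were lower (all features: 22.4% higher and 30.7% lower). The steepest decreases were those of rdgC and CanB. The phosphatase gene rdgC, first known from the fly eye, was at 8.66 ± 8.33 CPM in the repo gate and 80.8 ± 14.3 CPM in the neuron gates (-2.78, adjusted p = 4.82e-10, edgeR). CanB, a regulatory subunit of calcineurin, was at 49.7 ± 18.8 CPM and 386 ± 40.3 CPM (-2.72, adjusted p = 3.35e-16, edgeR). In the prt gate 5 of 11 were higher than in the VAChT gate and 3 were lower, beside 20.7% and 21.6% of all features.

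In the ERK cascade around rl, 4 of 13 genes were higher in the repo gate and 6 lower, beside 22.4% and 30.7% of all features. The share called higher is near that background. The higher ones include both ETS factors at the end of the pathway: the activator pnt was at 329 ± 122 CPM in the repo gate and 5.96 ± 3.95 CPM in the neuron gates (5.92, adjusted p = 7.35e-15, edgeR), and the repressor aop at 329 ± 42.7 CPM and 144 ± 23.9 CPM (1.22, adjusted p = 4.16e-11, edgeR). The kinases directly above rl were lower, Dsor1 (MEK) at 15.4 ± 6.51 CPM and 42.7 ± 5.54 CPM (-1.42, adjusted p = 6.76e-07, edgeR) and Raf at 10.1 ± 6.59 CPM and 27.2 ± 4.36 CPM (-1.18, adjusted p = 0.000859, edgeR). Raf lost the call without the deepest 5% of barcodes (-0.77, adjusted p = 0.0774) and among barcodes with 1000 to 3000 UMIs (-0.30, adjusted p = 0.631).

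Of the Wnt and Par-1 partners, 7 of 8 were lower in the repo gate and none higher, beside 30.7% and 22.4% of all features. The Wnt-pathway transcription factor gene pan was at 617 ± 181 CPM in the repo gate and 1685 ± 191 CPM in the neuron gates (-1.44, adjusted p = 3.30e-14, edgeR). The 14-3-3zeta gene, whose product binds phosphorylated proteins, was at 1392 ± 178 CPM and 4225 ± 511 CPM (-1.36, adjusted p = 3.55e-15, edgeR). In the prt gate 1 of 8 was higher than in the VAChT gate and 1 lower, beside 20.7% and 21.6% of all features.

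Over the 30 sums, the features with the pattern most like that of each gene were found by Pearson's r of log2(CPM + 1) among 4672 features with a mean of at least 20 CPM. The points share libraries and depth, so r is a description. For sgg they were Spred (0.985) and dlg1 (0.977), for par-1 zfh2 (0.938) and RhoGEF2 (0.934), and for Cdk5alpha dpr8 (0.984) and Nlg3 (0.983). For wdb they were da (0.969) and CG17233 (0.951), for mts mim (0.905) and CG14478 (0.896), and for tws FBXO11 (0.892) and CG8929 (0.879). The closest features of rl were CG17528 (0.844) and ph-d (0.836), and those of the sparse gene Cdk5 were c12.1 (0.842) and Ady43A (0.828).

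Barcodes with 50 to 300 UMIs were read too, and free RNA and shallow cells were not separated there. Each of the 8 genes was lower there than in barcodes with at least 1000 UMIs in all 6 libraries, at 13.0% to 43.8% of that level for sgg, 34.3% to 66.2% for par-1 and 19.6% to 77.7% for Cdk5alpha. The glia markers nrv2 and repo were higher there, at 343% to 593% and 203% to 407%, and the neuron marker elav was lower, at 16.5% to 42.0%. Whether the repo gate stands for glia below 1000 UMIs was not tested.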

How the data were processed

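Per the file headers, the authors' deposited matrices are raw UMI counts per feature and barcode, written by Cell Ranger 4. The submitters' processing notes name Cell Ranger 6.0. The genome build is not given in the sources used here. Identifiers were matched to an Ensembl BDGP6 annotation (22016 of 22064 features). Barcodes with at least 1000 UMIs were summed per library and gate. Barcodes with several defining genes (7.70% to 28.3% per library) or none (10.2% to 18.4%) entered no gate. No doublet caller was run; leaving out the deepest 5% of barcodes per library served as an alternative.

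Sums were tested in R 4.3.3 with edgeR 4.0.16 (TMM, filterByExpr, glmQLFTest, two-sided, Benjamini-Hochberg) and DESeq2 1.42.0 as an alternative. Standard errors and 95% intervals were derived from each p, and those of the repo gate can be too narrow. The fits were tested on simulated data. The 8 genes, the lists and the markers were chosen with earlier results of these data known. Named genes were the 8, tau, the member with the smallest p per gate, up to 2 increases and 2 decreases per list in the repo gate, and the 2 most similar features. Alternatives were another scaling, filter, UMI minimum (500), mitochondrial limit (20%), gate (2 UMIs), replicate block and each library left out. A further 4 were added after seeing the data: deep and shallow libraries as a block, barcodes without fat body RNA, barcodes with 1000 to 3000 UMIs, and the deepest sum as TMM reference.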

Additional observations from a re-analysis of the deposited data

How the results depend on the processing

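The counts of 0 genes called for the genotype, over all barcodes, in the 5 gates and in the test between gates, were the same under all alternatives run, and the 5 calls of the prt gate against the VAChT gate were kept in all (5 or 6 called). The count in the repo gate was 4 to 8 over alternatives and left-out libraries, against 6. Between the VGlut and VAChT gates DESeq2 called 3 genes, against 0. Between the Gad1 and VAChT gates the single call became 0 without a filter on low counts, at 500 UMIs, without barcodes over 20% mitochondrial UMIs, without the deepest 5%, with 2 UMIs of the gate gene, without fat body RNA and with the deepest sum as reference, and 0 to 1 with a library left out; in barcodes with 1000 to 3000 UMIs the gene called was Cdk5alpha. Small differences changed sign. For the genotype over all barcodes, Cdk5 gave 0.046 with the deep and shallow block and -0.12 to 0.093 with a library left out, rl -0.038 to 0.097 and tau -0.47 to 0.30. Without KI replicate 3, Cdk5 gave -0.12, rl -0.038 and tau 0.30. In the Gad1 gate against VAChT, Cdk5 gave 0.00596 without high mitochondrial shares, 0.025 without the deepest 5%, 0.047 with 2 UMIs and -0.071 to 0.046 with a library left out. In the prt gate against VAChT, Cdk5 gave 0.000715 with 2 UMIs, 0.020 at 1000 to 3000 UMIs and -0.066 to 0.024 with a library left out, and tws -0.00807 without a filter, -0.14 at 1000 to 3000 UMIs and -0.0013 to 0.039. At 1000 to 3000 UMIs, tau in the repo gate gave 0.10 and the genotype effect of wdb there -0.15. The test between gates gave 0.33 for mts with 2 UMIs and 0.019 with 3 UMIs of other glia markers. The cause was not tested.

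Libraries with the same replicate number did not all deviate together (r = 0.119, 0.048 and 0.257 over 11200 features), and KI replicate 1 correlated best with control replicate 2 (0.165), so the numbers were not taken as a pairing. With the replicate block 0 of the 8 genes were called, tws gave 0.42 (adjusted p = 0.306, edgeR), and 8 features were called over all barcodes, against 25. Over all barcodes the count of features called was 8 to 381 under the other alternatives and 1 to 61 with a library left out. In the gates it ranged from 6 to 208 (VAChT; 25 in the fit as reported), 3 to 164 (VGlut; 16), 1 to 43 (Gad1; 4), 2 to 102 (prt; 15) and 0 to 130 (repo; 2). Between gates it ranged from 388 to 1293 (VGlut against VAChT; 616), 600 to 1767 (Gad1 against VAChT; 1091) and 2640 to 4710 (repo; 4390), and in the test between gates from 39 to 441 (143). Without KI replicate 3 the count of features called for the genotype was 61 over all barcodes. In the gates it was then 98 (VAChT), 42 (VGlut), 4 (Gad1), 50 (prt) and 61 (repo), and 441 in the test between gates. Depth limits the repo gate most, where Cdk5 had 24 and Cdk5alpha 42 UMIs in all.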
